A study of Mus musculus with 2 samples.

Results

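*Nr5a1*, *Nr0b1*, *Foxl2* and *Gata2* are transcription factor genes of the pituitary gonadotroph. They were followed here in cells sorted from the neonatal mouse pituitary for GFP driven from the *Sox9* locus. The members were the 4 features, of 31055 in the count matrices, whose symbols are these names, and each symbol matched 1 feature. The labels give a male and a female library, each of SOX9iresGFP-positive cells pooled from 3 *Sox9iresGFP/+* pups at postnatal day 3 (P3), with stem cell as the cell type. Both groups carry the same reporter allele and received no treatment. GFP protein outlasts *Sox9* transcription, so the sort is meant to collect SOX9-expressing stem cells (SCs) together with progeny that left that state recently. A cell that lost *Sox9* long before the sort should be missed, but how strictly the sort excluded such cells was not tested. With 1 library per sex no difference between the sexes or between sets of cells was tested. Every interval given is an exact 95% interval and covers counting error only, and cells of 1 library are not replicates.

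Gonadotrophs make luteinising hormone and follicle-stimulating hormone (FSH), which share the alpha subunit encoded by *Cga*. *Cga* is also the alpha subunit of thyroid-stimulating hormone in thyrotrophs, which arise in the *Pou1f1* lineage with somatotrophs and lactotrophs. NR5A1 (steroidogenic factor 1) is an orphan nuclear receptor that acts on *Cga*, *Lhb* and *Gnrhr*, the gene for the receptor of gonadotrophin-releasing hormone. NR0B1 (DAX1) is an atypical nuclear receptor that represses NR5A1 activity and is itself a target of NR5A1. FOXL2 is a forkhead factor that acts on *Cga* early and on *Fshb* later, and GATA2 is a zinc-finger factor of both gonadotrophs and thyrotrophs.

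On mm10, with the GENCODE vM21 annotation, *Nr5a1* (ENSMUSG00000026751) lies on the reverse strand of chromosome 2 between 38692656 and 38714542 and has 7 exons. *Nr0b1* (ENSMUSG00000025056) lies on the forward strand of chromosome X between 86191764 and 86195947 with 2 exons. *Foxl2* (ENSMUSG00000050397) is a gene of 1 exon on the forward strand of chromosome 9, between 98955288 and 98958543. *Gata2* (ENSMUSG00000015053) lies on the forward strand of chromosome 6 between 88193891 and 88207032 and has 6 exons.

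Promoter windows of RefSeq (GRCm38.p6, 250 bases before each start) were matched by symbol for 3 of the 4 members and for *Cga*, *Lhb*, *Fshb* and *Gnrhr*, which gave 8 windows. They are shown because NR5A1, whose activity NR0B1 represses, acts through nuclear receptor sites. The letters TGACCTTG, the form bound by NR5A1, were found on either strand in 438 of 32851 windows (1.33%), and AGGTCA, the nuclear receptor core, in 4607 (14.0%). The reverse of AGGTCA is contained in TGACCTTG, so that the searches overlap. Shown are the 239 bases of the *Nr0b1* window that precede the GENCODE gene (forward strand, chrX:86191525-86191763) and short stretches of *Cga* (forward strand, chr4:34893561-34893588) and *Lhb* (forward strand, chr7:45420806-45420835), with the matched letters in capitals.
Nr0b1: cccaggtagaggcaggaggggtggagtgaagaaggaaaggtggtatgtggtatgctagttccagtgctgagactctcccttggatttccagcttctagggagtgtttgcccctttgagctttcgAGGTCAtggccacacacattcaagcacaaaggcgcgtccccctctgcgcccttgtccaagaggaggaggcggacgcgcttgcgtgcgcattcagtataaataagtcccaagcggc
Cga: agctgtccttgAGGTCAccactacctca
Lhb: cctggcttcccTGACCTTGtctgtgtctcg
The match began 126 bases before the RefSeq start of *Nr0b1*, 207 before that of *Cga* and 129 before that of *Lhb*. The 2 annotations place some starts differently. GENCODE starts *Lhb* at 45420820, inside the matched letters, so that they do not precede that start. The RefSeq window of *Foxl2* (98955357 to 98955606) lies inside its GENCODE gene. Neither set of letters was found in the windows of *Foxl2*, *Gata2* (which has 2 starts), *Fshb* or *Gnrhr*. The GATA letters AGATAA or TGATAA, present in 5452 windows (16.6%), were in none of the 8. A match describes the letters of the window and does not show that a factor binds there.

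After filtering, 10410 male and 5711 female cells remained, with medians of 8902.5 and 9789 unique molecular identifiers (UMIs) per cell, and 19 barcodes occurred in both libraries. *Foxl2* was the most counted member, with 5610 male and 1390 female UMIs in 1859 and 594 cells. *Gata2* had 1008 and 213 UMIs in 556 and 137 cells. *Nr5a1* had 635 and 67 UMIs in 439 and 51 cells. *Nr0b1* had 255 and 19 UMIs in 118 and 15 cells, so that its female values rest on few molecules throughout. On the CPM scale, which divides the UMIs of a gene by all UMIs of the set of cells and is used for every level given here, the male and female levels were 53.0 and 22.1 for *Foxl2*, 9.52 and 3.39 for *Gata2*, 6.0 and 1.07 for *Nr5a1*, and 2.41 and 0.302 for *Nr0b1*.

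To place each gene along the commitment of SC progeny, the 6783 male and 5424 female cells with at least 5000 UMIs were ranked by the share of their UMIs that were *Cga*, and divided into 7 bins. From no *Cga* to over 2%, the male bins held 4009, 1429, 277, 267, 330, 319 and 152 cells and the female bins 4607, 481, 143, 87, 63, 18 and 25 cells. The bins are an order of *Cga* share and not of time. Along this order the 4 genes rose at different places. *Foxl2* was already high at *Cga* shares below 0.3%, *Nr5a1* and *Gata2* reached 50% of their highest male level between 1 and 2%, and *Nr0b1* did so only over 2%.

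*Foxl2* stood at 9.30 CPM (8.50–10.2) in male cells without *Cga*, and at 22.2, 107, 166, 214, 271 and 230 CPM over the next 6 bins. A gene was taken to have come on at the first bin from which its interval stayed above that of cells without *Cga*. For *Foxl2* this was the first bin with *Cga*, up to 0.03%, and 50% of the highest level was passed between 0.1 and 0.3% *Cga*. The female bins gave the same 2 positions, with 7.90, 37.1, 95.5, 171, 226, 314 and 131 CPM. In both libraries the last bin was below the one before it.

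*Nr5a1* stood at 0.617 CPM (0.424–0.866) in male cells without *Cga* and at 0.964, 4.17, 8.01, 20.7, 45.8 and 65.3 CPM (55.3–76.7 in the last bin) over the others. The interval of the first bin with *Cga* (0.618–1.43) still overlapped that of cells without it, and *Nr5a1* came on between 0.03 and 0.1%, 1 bin after *Foxl2*. In the female library it was 0.217, 1.09, 2.09, 5.84, 10.5, 45.5 and 34.3 CPM, came on in the first bin with *Cga* and, as in the male library, passed 50% of its highest level between 1 and 2%. The female onset in the first bin was not stable. Without doublet-marked cells, and without cells with a *Pou1f1* UMI, female *Nr5a1* came on between 0.03 and 0.1%, as in the male library.

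By the 50% mark *Nr0b1* was the last of the 4 in the male library. It had 0.187 CPM (0.0896–0.344) in cells without *Cga* and 0.241, 0.490, 1.18, 3.80, 14.1 and 57.9 CPM (48.5–68.6) in the others. By its interval it came on at 0.1 to 0.3% *Cga*, against 0.3 to 1% for *Gata2*. This difference depends on the cells used. With at least 2000 UMIs per cell male *Nr0b1* also came on at 0.3 to 1%. The 2 baselines are also unlike, since the cells without *Cga* include extra-pituitary-like cells rich in *Gata2*, described below. At 0.3 to 1% *Cga*, *Nr0b1* was at 6.56% of its highest level and at 1 to 2% at 24.4%, whereas *Nr5a1* was past 50% of its own there. The female *Nr0b1* levels were 0.138, 0.312, 1.04, 0, 2.10, 7.58 and 8.57 CPM, where the 0 allows up to 2.5 CPM. Female *Nr0b1* came on, and passed 50% of its highest level, between 1 and 2%, and female *Gata2* did both over 2%. The late place of *Nr0b1* at the 50% mark therefore rests on the male library. It also rests on the bin over 2%, since in male bins of equal cell number *Nr5a1*, *Gata2* and *Nr0b1* all passed 50% in the last bin, with a median of 1.72% *Cga*.

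*Gata2* did not start from a low level when all cells without *Cga* were summed. Male cells without *Cga* had 6.99 CPM (6.30–7.73), which was 15.1% of its highest level, against 3.43% for *Foxl2*, 0.944% for *Nr5a1* and 0.323% for *Nr0b1*. This bin mixed classes that are described below. Its male SC-like cells had 0.117 CPM of *Gata2* and its differentiating-like cells 0 (up to 0.309). It also held 436 extra-pituitary-like cells, a class with 74.2 CPM. *Gata2* was lower at 4.50 and 1.72 CPM in the next 2 bins and then 5.65, 17.8, 34.5 and 46.2 CPM (37.8–55.8). Against all cells without *Cga* it therefore came on only at 0.3 to 1%. The female levels of 3.05, 0.779, 1.04, 0.834, 6.30, 7.58 and 64.3 CPM stayed low up to the last bin. *Tshb*, the thyrotroph beta subunit, and *Pou1f1* move with that last female bin. Cells with a *Pou1f1* UMI were 36.0% of it, against 5.56% of the female bin before and 6.58% of the last male bin. Without its 6 cells with at least 0.1% *Tshb*, the last female bin had 37.5 CPM of *Gata2* in 19 cells.

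**Figure D1:**
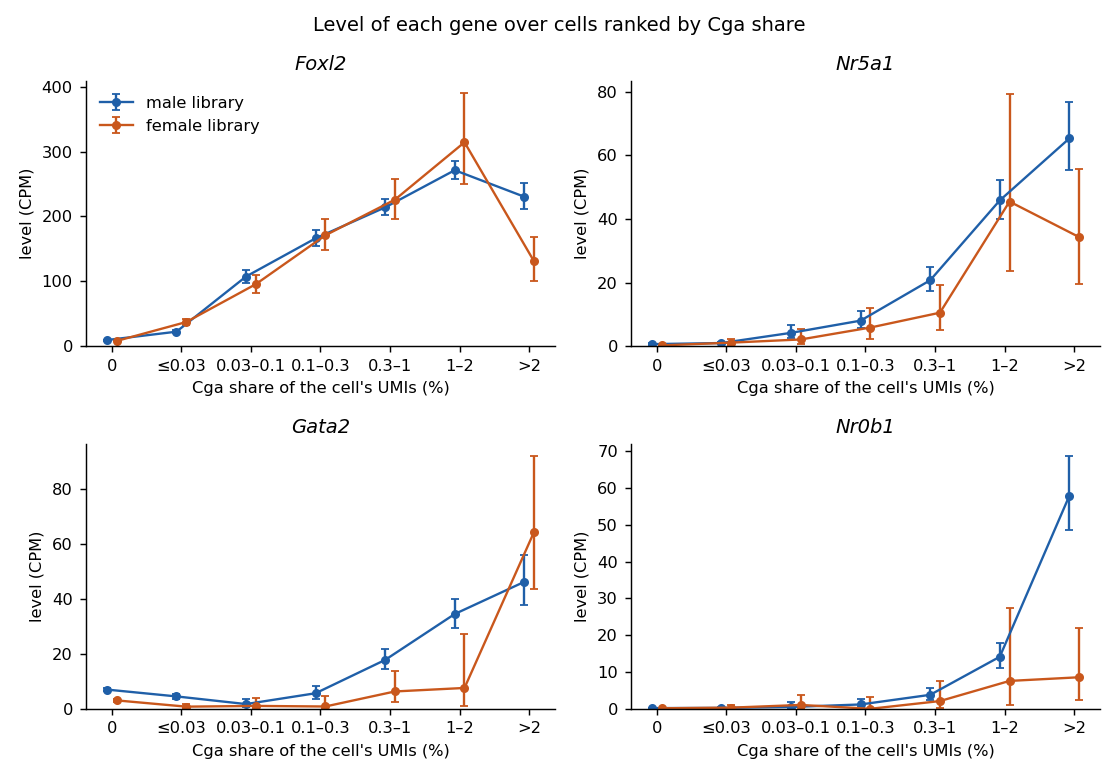
Level of each gene (CPM, summed UMIs, linear axes that start at 0) in 7 bins of *Cga* share in the male and female library; points are the level of a bin and bars the exact Poisson 95% interval. In the male library *Foxl2* was 107 CPM at 0.03 to 0.1% *Cga*, where *Nr0b1* was 0.490 CPM and reached 57.9 CPM only over 2%.

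**Figure D2:**
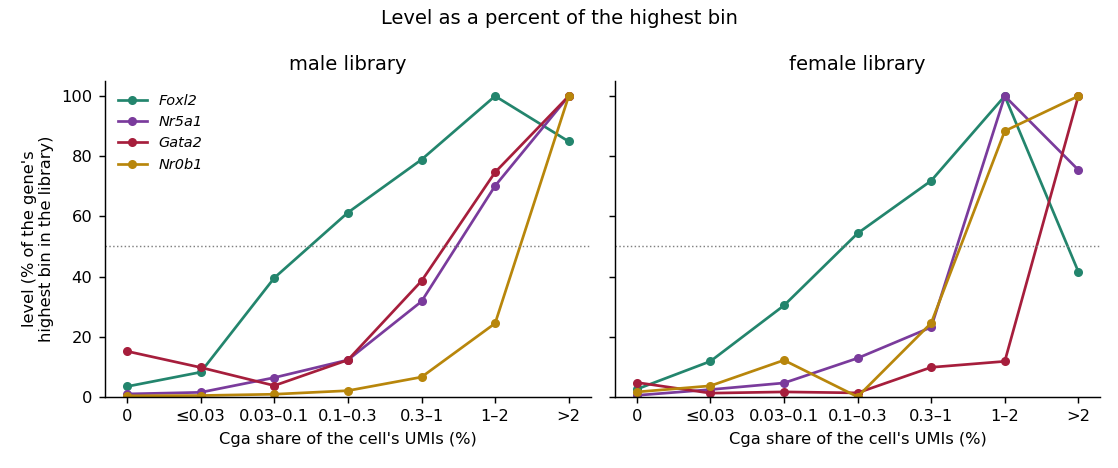
The same levels as a percent of the highest bin of each gene in each library, with a dotted line at 50%. The male curve of *Nr0b1* stands at 24.4% between 1 and 2% *Cga*, where the other 3 genes lie above the line.

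Set against the cells without *Cga*, the 471 male and 43 female cells over 1% *Cga* had all 4 members at least 2-fold higher in both libraries. Of 16868 male genes tested, 14.1% passed that rule upward and 22.3% downward, and of 15590 female genes 10.2% and 17.7%. *Nr0b1* was 27.9 CPM (24.2–32.0) in the male cells over 1% *Cga*, 149 times (79.5–316) the level of cells without it. *Nr5a1* was 51.9 CPM (46.9–57.4), 84.3 times (59.0–124) higher. *Foxl2* was 259 CPM (247–270) and 27.8 times (25.2–30.7) higher, and *Gata2* 38.1 CPM (33.8–42.9) and 5.46 times (4.66–6.39) higher. In the female cells *Nr5a1* was 38.3 CPM (25.5–55.4), *Nr0b1* 8.21 (3.01–17.9), *Foxl2* 197 (166–232) and *Gata2* 43.8 (30.0–61.8), from 28, 6, 144 and 32 UMIs. The female ratios to cells without *Cga* were 177 (85.3–394), 59.5 (16.5–207), 24.9 (20.5–30.3) and 14.3 (9.48–21.1). In both libraries the *Gata2* ratio was taken against a bin that also held extra-pituitary-like cells. The female *Gata2* level was 23.3 CPM without the 6 *Tshb*-rich cells and 16.6 CPM without the cells with a *Pou1f1* UMI. The cut at 1% falls in a continuous range, with 143 male and 13 female cells between 0.8 and 1.2% *Cga*.

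The other genes of the programme were counted from 4 lists in the same contrast. Of the gonadotroph hormone, receptor and signal genes, leaving out *Cga*, by which the cells were chosen, 5 of 8 were higher in male cells over 1% *Cga* (*Lhb*, *Fshb*, *Gnrhr*, *Tgfbr3l* and *Inha*) and 2 were lower (*Inhba* and *Fst*, an activin subunit and its antagonist), and in the female library 4 of 7 tested were higher and 2 lower. The 92 female *Fshb* UMIs came from 1 cell. The male ones were also held by few cells, with 304 UMIs in 7 of the 465 cells over 1% *Cga* and under 0.1% *Tshb*. *Gnrhr* was 256 against 0.0934 CPM, *Lhb* 123 against 0.187 and *Fshb* 41.6 against 0.243 in the male library. Of 17 other pituitary transcription factors, 9 male factors were higher and 2 lower, and 6 female factors were higher and 5 lower. *Neurod1*, a basic helix-loop-helix factor, was 1068 against 4.26 CPM, *Nhlh2*, another of that family, 50.6 against 0.131, and *Isl1*, a LIM homeodomain factor, 274 against 76.9. *Sox2*, which acts in progenitors, was among the lower factors of the male library (36.8 against 455 CPM), while *Lhx3*, a LIM homeodomain factor, was 121 CPM in both sets. Of 8 relatives of the members in the same gene families, 3 had enough UMIs to be tested, none was higher in either library, and *Gata6* and *Foxl1* were lower in the male library. Of 5 nuclear receptors of the reproductive axis, 2 were higher in the male library, among them the oestrogen receptor gene *Esr1* (8.89 against 2.02 CPM), and *Nr4a1* (45.4 against 130 CPM) was lower, and in the female library none of 4 was higher and 1 was lower.

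Along the same male bins, *Isl1* and *Pitx1*, a homeobox gene of all pituitary hormone lineages, had passed 50% of their highest level at 0.03 to 0.1% *Cga*, 1 bin before *Foxl2*. In cells without *Cga* they already stood at 17.7 and 32.4% of that level, against 3.43% for *Foxl2*. Without cells with a *Pou1f1* UMI, *Foxl2* also passed 50% at 0.03 to 0.1%. *Neurod1* passed 50% at 0.3 to 1%, between *Foxl2* and the pair *Nr5a1* and *Gata2*, and *Nhlh2* at 1 to 2% with that pair. *Gnrhr*, *Lhb*, *Fshb* and *Tgfbr3l*, which encodes the pituitary inhibin co-receptor, did so over 2%, in the bin of *Nr0b1*. The place of *Fshb* rests on few cells, with 282 UMIs in 4 of the 148 cells over 2% *Cga* and under 0.1% *Tshb*.

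Detection per cell depends on depth, so each cell was thinned to 5000 UMIs before cells were counted as positive. Of the 471 male cells over 1% *Cga*, 70.1% (65.7–74.2) had a *Foxl2* UMI, 23.1% (19.4–27.2) an *Nr5a1* UMI, 14.0% (11–17.5) a *Gata2* UMI and 9.77% (7.24–12.8) an *Nr0b1* UMI. Without thinning the shares were 93.4, 49.5, 26.5 and 17.2%. In SC-like cells, which should lack these genes, the thinned shares were 0.352% for *Foxl2*, 0.0504% for *Nr5a1*, 0.101% for *Gata2* and 0.0504% for *Nr0b1*, with a median of 9060 UMIs before thinning against 14583 in cells over 1% *Cga*. The 43 female cells gave 65.1, 25.6, 16.3 and 4.65%, against 0.117, 0.0780, 0.0780 and 0.0780% in female SC-like cells (median 8453 UMIs against 15969). The counts were uneven between cells. Before thinning, 220 of the 471 male cells held 4 or more *Foxl2* UMIs and 31 held none, whereas 390 held no *Nr0b1* UMI and 17 held 4 or more. The male cell richest in *Nr0b1* had 21 of its UMIs at a *Cga* share of 3.43%.

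In the male library detection followed the order of the levels. The thinned share of male cells with *Foxl2* was 3.64, 9.17, 32.9, 45.7, 62.7, 73.0 and 63.8% from no *Cga* to over 2%. For *Nr5a1* it was 0.324, 0.210, 1.44, 2.62, 9.70, 22.3 and 25%. *Nr0b1* was detected in 0.0748% of male cells without *Cga*, in 0.909% at 0.3 to 1%, in 6.27% at 1 to 2% and in 17.1% over 2%. Read from the other side, the median *Cga* share of positive male cells was 0.355% for *Foxl2* (1027 cells), 1.33% for *Nr5a1* (168 cells) and 1.95% for *Nr0b1* (57 cells), whereas 51.7% of the 259 *Gata2*-positive cells had no *Cga* at all. Cells over 1% *Cga* made up 80.7% of the *Nr0b1*-positive, 64.9% of the *Nr5a1*-positive, 32.1% of the *Foxl2*-positive and 25.5% of the *Gata2*-positive male cells. The female medians were 0.0240% for *Foxl2* (346 cells), 0.354% for *Nr5a1* (29 cells) and 0.00305% for *Nr0b1*. Of the 8 female *Nr0b1*-positive cells 4 had no *Cga*, so that female *Nr0b1* did not follow the male order.

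Few cells showed several members at this depth. Among the 471 male cells over 1% *Cga*, 88 (18.7%) had none, 248 (52.7%) had 1, 105 (22.3%) had 2, 27 (5.73%) had 3 and 3 (0.637%) had all 4. *Foxl2* alone was the commonest state, in 204 cells (43.3%), and 53 cells had *Nr5a1* with *Foxl2* and 31 had *Foxl2* with *Gata2*. Cells with 2 or more members were 0.150% of male cells without *Cga*, 10.3% at 0.3 to 1%, 27.9% at 1 to 2% and 30.3% over 2%. Over 1% *Cga* the share was 28.7% (24.6–33.0) of male and 25.6% of female cells (11 of 43), and *Foxl2* alone was again the commonest state in the female library, in 19 cells.

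**Figure D3:**
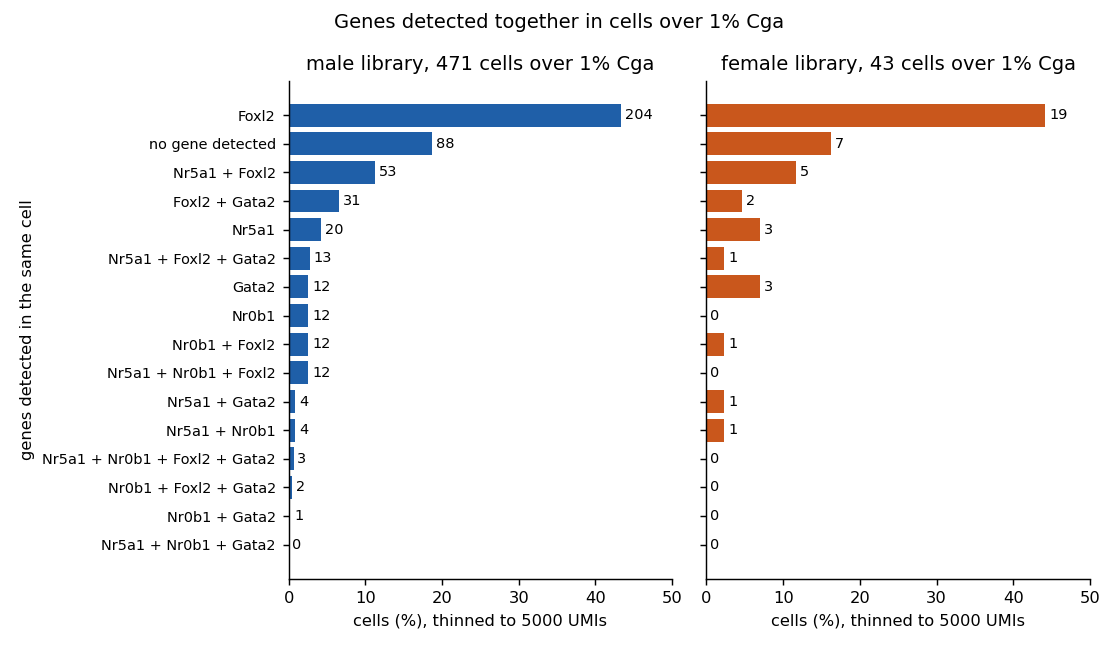
Percent of cells over 1% *Cga* that held each combination of the 4 genes after thinning to 5000 UMIs, with the number of cells beside each bar, for 471 male and 43 female cells. *Foxl2* alone leads with 204 and 19 cells, and all 4 genes were detected together in 3 male cells.

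For each of the 6 pairs of members, the cells with both were set beside the number given by multiplying the 2 shares. In male cells over 1% *Cga*, *Nr5a1* and *Nr0b1* met in 19 cells against 10.6, *Nr5a1* and *Gata2* in 20 against 15.3, *Nr5a1* and *Foxl2* in 81 against 76.4, *Foxl2* and *Gata2* in 49 against 46.2, *Nr0b1* and *Foxl2* in 29 against 32.2, and *Nr0b1* and *Gata2* in 6 against 6.45. The pair *Nr5a1* and *Nr0b1* had the highest ratio to its product, 1.78. Of the *Nr0b1*-positive cells 41.3% (27.0–56.8) had *Nr5a1*, and of the *Nr5a1*-positive cells 17.4% (10.8–25.9) had *Nr0b1*. Cells over 1% *Cga* come from more than 1 cluster, and the classes differ in both genes. Within the male gonadotroph-like cells of at least 0.3% *Cga* (199 cells that could be thinned) the pair met in 19 cells against 15.6, and within the cluster led by *Neurod1* (413 cells) in 0 against 0.295.

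Male cells over 1% *Cga* with and without each member also differed in other genes. The 46 cells with *Nr0b1* had 722 CPM (616–840) of *Gnrhr* against 207 (188–227) in the 425 without, 300.0 against 68.7 CPM of *Lhb*, 113 against 49.4 of *Nr5a1*, and 613 against 1180 of *Neurod1*. Their *Cga* was 26313 against 18762 CPM. *Fshb* was detected in 5 of the 471 thinned cells and is not compared. The 109 cells with *Nr5a1* had 407 against 212 CPM of *Gnrhr*, and 222 against 51.9 of *Lhb*. The 66 cells with *Gata2* had 264 against 256 CPM of *Gnrhr* and 54.5 against 97.3 of *Lhb*. Their *Tshb* was 306 against 77.0 CPM, but 6 male cells held most *Tshb* UMIs (1434), and without them it was 21.9 (8.79–45.1) against 8.98 CPM (5.32–14.2), with overlapping intervals. The 330 cells with *Foxl2* had 14.5 CPM of *Pou1f1* against 80.9 in the 141 without, 67.9 against 146 of *Lhb* and 15.8 against 38.3 of *Sox2*.

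The cells were also grouped into 22 clusters without using the 4 genes or the listed genes, and clusters were called by their markers. The gonadotroph-like cluster was led by *Gnrhr*, *Lhb*, *Cga*, *Scg2*, *Fshb* and *Nxnl2* and held 226 male and 32 female cells. A second cluster rich in *Cga*, of 469 male and 113 female cells, was led by *Neurod1*, *Scgn*, *Cox8b* and *St18*. It fell short of the marker score for any class and is called *Neurod1*-led here. Of the male cells over 2% *Cga* 61.8% were gonadotroph-like and 34.9% *Neurod1*-led, whereas between 1 and 2% *Cga* 27.3% were gonadotroph-like and 65.2% *Neurod1*-led. The gonadotroph-like cluster was not uniform. Its 23 male and 18 female cells under 0.3% *Cga* all had at least 1% *Pomc*, and carried 106 and 146 CPM of *Tbx19*, a corticotroph and melanotroph factor. They had 2.29 CPM of *Nr5a1*, 9.18 of *Nr0b1*, 16.1 of *Foxl2* and 0 of *Gata2* (up to 6.88) in the male library, and 0, 0, 14.6 and 0 CPM in the female library. Among the cells of at least 0.3% *Cga*, 5 male and 1 female also had at least 1% *Pomc*. Immune and erythroid markers were at 0 in the male gonadotroph-like cells and endothelial markers summed to 2.38 CPM. Other lists were above their level in male *Neurod1*-led cells, with 476 against 143 CPM for SC, 257 against 78.2 for *Pou1f1*-lineage, 11704 against 469 for corticotroph and 36.0 against 19.3 for extra-pituitary markers, and their part in the results was not tested.

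The 203 male gonadotroph-like cells of at least 0.3% *Cga* had 74.5 CPM (65.5–84.3) of *Nr5a1*, 62.5 (54.3–71.6) of *Nr0b1*, 201 (186–217) of *Foxl2* and 57.1 (49.3–65.8) of *Gata2*. The *Neurod1*-led cells had 31.1 (27.1–35.5), 0.436, 311 (298–324) and 21.6 CPM. *Nr0b1* was thus 143 times (48.4–701) higher in the gonadotroph-like cells, *Gata2* 2.64 times (2.12–3.29) and *Nr5a1* 2.40 times (1.99–2.89), and these 3 passed the 2-fold rule, as did 13% of all genes tested upward and 4.85% downward. *Foxl2* had a ratio of 0.647 (0.593–0.706) and did not pass it. In the female library the 14 gonadotroph-like cells of at least 0.3% *Cga* had 35.2 CPM each of *Nr5a1*, *Nr0b1* and *Gata2* and 154 of *Foxl2*, and the *Neurod1*-led cells 20.4, 0 (up to 1.85), 6.80 and 234 CPM. *Nr0b1* (8 UMIs against 0) and *Gata2* (5.18 times, 1.81–14.1) passed there, where 8.99% of genes passed upward and 15.6% downward, and *Nr5a1* (1.73, 0.689–3.81) and *Foxl2* (0.658, 0.452–0.932) did not. Over the whole cluster, with its cells under 0.3% *Cga*, the same 3 members passed in the male library (14% of genes upward and 4.92% downward), and in the female library *Nr0b1* and *Gata2* passed upward and *Foxl2* downward, at 0.375 (12.4% upward and 12.1% downward).

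The clusters also differed in *Nr0b1* at matched *Cga* shares. At 0.3 to 1, 1 to 2 and over 2% *Cga*, male *Nr0b1* was 19.1, 47.3 and 93.0 CPM in gonadotroph-like cells and 0.429, 0.651 and 0 CPM (up to 4.07) in *Neurod1*-led cells. *Nr5a1* was 50.9, 69.5 and 86.7 CPM against 22.7, 39.4 and 35.3, and *Gata2* 61.6, 52.9 and 59.9 against 17.2, 28.0 and 27.1. *Foxl2* had the opposite order, with 121, 208 and 221 CPM against 306, 327 and 271, and the intervals overlapped over 2% *Cga* (197–247 against 235–312). The *Gnrhr* levels were 272, 416 and 712 CPM against 21.5, 60.2 and 74.6. No *Nr0b1* UMI was found in the female *Neurod1*-led cells of these 3 bins (40, 17 and 7 cells).

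**Figure D4:**
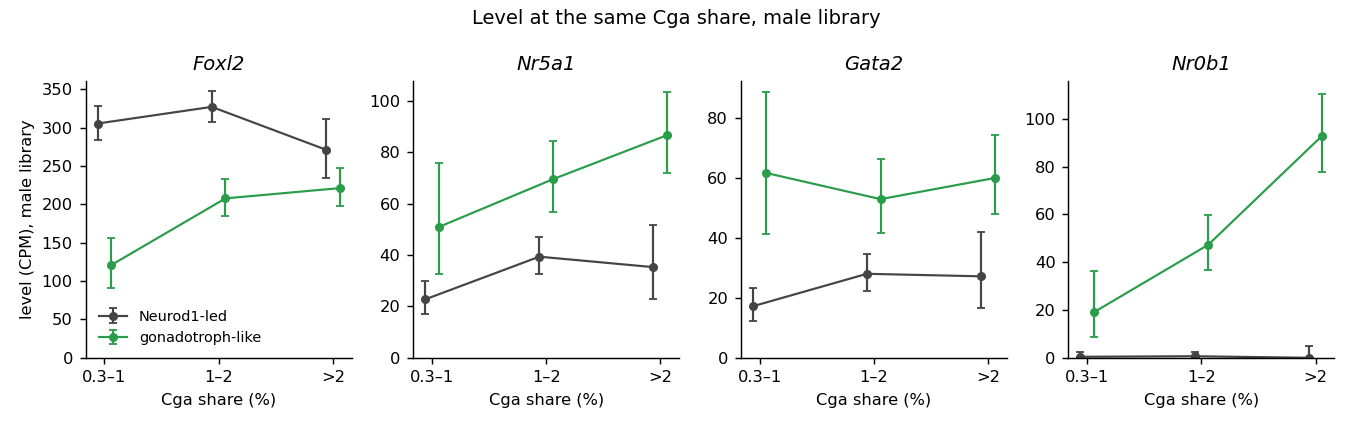
Level of each gene (CPM, linear axes from 0, bars are exact Poisson 95% intervals) at the same *Cga* share in male gonadotroph-like and *Neurod1*-led cells. *Nr0b1* was 93.0 CPM in gonadotroph-like and 0 in *Neurod1*-led cells over 2% *Cga*, while *Foxl2* was higher in *Neurod1*-led cells up to 2% *Cga*.

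Differentiating-like cells, marked by *Lef1* and cell-cycle exit genes, formed a large class of 1545 male and 1125 female cells. Among the members they carried mainly *Foxl2*, at 90.0 CPM (85.9–94.2) in male and 62.7 CPM in female cells. *Nr5a1* was 2.97 (2.27–3.82) and 1.18 CPM, *Nr0b1* 0.247 and 0 (up to 0.221), and *Gata2* 0.148 and 0.0735 CPM. Against SC-like cells *Foxl2* was 68.3 times (47.7–102) and *Nr5a1* 13.5 times (5.49–43.2) higher in the male library, where 10.7% of genes passed upward and 21.1% downward, while *Nr0b1* (1.41) and *Gata2* (0.677) did not pass. In the female library, where 9.14% passed upward and 21.6% downward, *Foxl2* was 154 times (83.2–322) and *Nr5a1* 14.4 times (3.39–129, on 2 SC-like UMIs) higher, *Gata2* was lower on 1 UMI against 5, and *Nr0b1* had too few UMIs. The class therefore held a large part of all *Foxl2* molecules, 32.4% of the male and 61.3% of the female ones.

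Within this class *Foxl2* and, on fewer UMIs, *Nr5a1* were higher with more *Cga* and in the *Smoc2*-led clusters. Its cells without *Cga* had 42.6 CPM of *Foxl2* in the male library, and those up to 0.03, from 0.03 to 0.3 and over 0.3% *Cga* had 76.3, 193 and 248 CPM, against 38.8, 79.7, 145 and 264 CPM in the female library. Male *Nr5a1* was 1.96, 2.13, 5.61 and 8.28 CPM over the same steps and *Gata2* 0, 0.531, 0 and 0 CPM, and no step of *Nr0b1* had more than 2 UMIs in either library. The *Smoc2*-led clusters had 119 and 90.5 CPM of *Foxl2* and the *Cdkn1a*-led clusters 11.1 and 9.61 CPM, male value first. These are 10.7 times (8.26–14.1) and 9.42 times (6.98–13.0) apart, where the 2-fold rule was passed upward by 9.74% of male and 7.11% of female genes and downward by 5.76% and 6.74%. *Nr5a1* was also higher in the *Smoc2*-led cells, 21.5 times (3.71–864, on 1 UMI in the *Cdkn1a*-led cells) for male cells and 7.88 times (1.21–332, also on 1 UMI) for female cells.

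Against the differentiating-like cells, the whole gonadotroph-like cluster had 22.3 times the *Nr5a1*, 228 times (96.1–709) the *Nr0b1* and 340 times (115–1665, against 3 UMIs) the *Gata2* in the male library, but 2.0 times (1.83–2.18) the *Foxl2*, which did not pass the 2-fold rule that 21.9% of genes passed upward and 10.2% downward. The female ratios were 15.7 for *Nr5a1*, 251 (33.7–11146) for *Gata2* and 1.40 for *Foxl2*, with 8 against 0 *Nr0b1* UMIs, where 16.5% passed upward and 13% downward. Without the cells under 0.3% *Cga* the call of *Foxl2* turned. The gonadotroph-like cells of at least 0.3% *Cga* had 2.23 times (2.04–2.44) its differentiating-like level in the male and 2.46 times (1.70–3.45) in the female library, and all 4 members passed upward in both, as did 21.1% of male and 12.9% of female genes, with 10.4% and 13.7% downward. In either set of cells *Foxl2* had the smallest of the ratios.

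In *Pou1f1*-lineage-like cells, 601 male and 246 female, the members were low but above SC-like cells. The male levels were 21.2 CPM (18.4–24.4) of *Foxl2*, 4.16 (2.96–5.69) of *Gata2*, 3.63 (2.51–5.07) of *Nr5a1* and 0.746 of *Nr0b1*, and the female levels 8.32, 7.09 (4.49–10.6), 0.925 and 1.23 CPM. Against SC-like cells all 4 passed the 2-fold rule in the male library, with ratios of 16.1 (10.9–24.5), 19.0 (7.46–61.6), 16.5 (6.43–54.1) and, on 7 against 4 UMIs, 4.25 (1.08–19.8), where 18% of genes passed upward and 14.2% downward. In the female library *Foxl2* (20.4, 9.58–47.3) and *Gata2* (34.8, 12.9–117) passed, where 15% passed upward and 14.4% downward, and the other two had too few UMIs. Male SC-like cells had 1.32 CPM of *Foxl2*, 0.219 of *Nr5a1*, 0.219 of *Gata2* and 0.176 of *Nr0b1*.

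*Foxl2* and *Gata2* in both libraries and *Nr5a1* in the male library were highest in the cells of the class over 0.3% *Cga*. Male *Pou1f1*-lineage-like cells without *Cga* had 3.12 CPM of *Foxl2*, and those up to 0.03, from 0.03 to 0.3 and over 0.3% *Cga* had 4.07, 31.4 and 107 CPM (221, 175, 134 and 53 cells). *Nr5a1* was 2.18, 1.70, 2.81 and 15.6 CPM and *Gata2* 3.43, 2.71, 1.41 and 16.6 CPM. Female *Foxl2* was 1.05, 4.45, 21.7 and 64.5 CPM and female *Gata2* 2.11, 0, 0 and 102 CPM, the last from 19 UMIs in 7 cells. *Nr0b1* had no such order, with 0.624, 1.02, 0.469 and 0.975 CPM in the male library, and the 7 female cells over 0.3% *Cga* held no UMI of *Nr0b1* or *Nr5a1* (up to 16.1 CPM). By leading hormone gene, the *Gh*-led cells had more *Gata2* than the *Prl*-led cells in the male library, 11.2 (6.54–18.0) against 2.80 CPM, and less *Foxl2*, 1.98 against 24.9 CPM. The female levels rested on 6 *Gata2* and 7 *Foxl2* UMIs in *Gh*-led cells, at 10.8 CPM (3.95–23.4) against 6.32 for *Gata2* and 12.6 CPM (5.05–25.9) against 7.44 for *Foxl2*, and did not separate the subclusters.

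Cells with at least 0.1% *Tshb*, a cut chosen after the data were seen, numbered 6 in each library over 1% *Cga*. They had more *Gata2* than the other cells over 1% *Cga* in the female library. In the male library their 5 *Gata2* UMIs did not separate them from the others. The female ones had 109 CPM (65.9–171) of *Gata2*, from 19 of the 32 female *Gata2* UMIs over 1% *Cga*, with 69.1 CPM of *Foxl2* and no UMI of *Nr5a1*, *Nr0b1* or *Gnrhr*. The male ones had 24.5 CPM (7.95–57.2) of *Gata2*, 108 of *Foxl2* and 4.90 each of *Nr5a1* and *Nr0b1*. The other 465 male cells over 1% *Cga* had 38.5 CPM (34.1–43.4) of *Gata2*, 263 of *Foxl2*, 53.3 of *Nr5a1* and 28.5 of *Nr0b1*. The other 37 female cells over 1% *Cga* had 23.3 CPM of *Gata2*, 237 of *Foxl2*, 50.3 of *Nr5a1* and 10.8 of *Nr0b1*. The single richest female cell for *Gata2*, with 8 UMIs, was *Pou1f1*-lineage-like with 14.9% *Cga*.

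Among the classes, the highest *Gata2* level was outside the endocrine cells, although the 6 female *Tshb*-rich cells had more than the female class. The extra-pituitary-like clusters, which express collagen and stromal genes, had 74.2 CPM (67.7–81.2) in 748 male and 56.3 CPM (48.0–65.6) in 326 female cells. They held 46.7% of all male and 77.0% of all female *Gata2* UMIs, and 29.4% of the male cells were positive after thinning. The *Tcf21*-led cells among them had 104 and 81.6 CPM and the *Apod*-led cells 40.7 and 33.3 CPM in the male and female library. Male endothelial-like cells had 42.0 CPM (23.5–69.2), from shallow cells with a median of 887.5 UMIs. Of the male cells without *Cga*, 10.9% were extra-pituitary-like and 39.7% SC-like, and *Gata2* in SC-like cells was 0.219 CPM. The other 3 members were low in the extra-pituitary-like cells, at 13.9 CPM of *Foxl2*, 0.473 of *Nr5a1* and 0.315 of *Nr0b1* in the male library. Without doublet-marked cells *Foxl2* there was 5.16 CPM and *Nr5a1* 0.

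Ordered by class, male *Nr5a1* was highest in gonadotroph-like cells (66.2 CPM over the whole cluster), then in *Neurod1*-led cells, then in *Pou1f1*-lineage-like and differentiating-like cells, whose intervals overlapped. Male *Foxl2* ran from *Neurod1*-led to gonadotroph-like (180 CPM), differentiating-like and *Pou1f1*-lineage-like cells, with no overlap between neighbours. Male *Gata2* ran from extra-pituitary-like to gonadotroph-like cells (50.5 CPM), below which the gonadotroph-like, endothelial-like and *Neurod1*-led cells overlapped with their neighbours. Male *Nr0b1* was 56.4 CPM in gonadotroph-like cells, which held 83.5% of its UMIs.

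**Figure D5:**
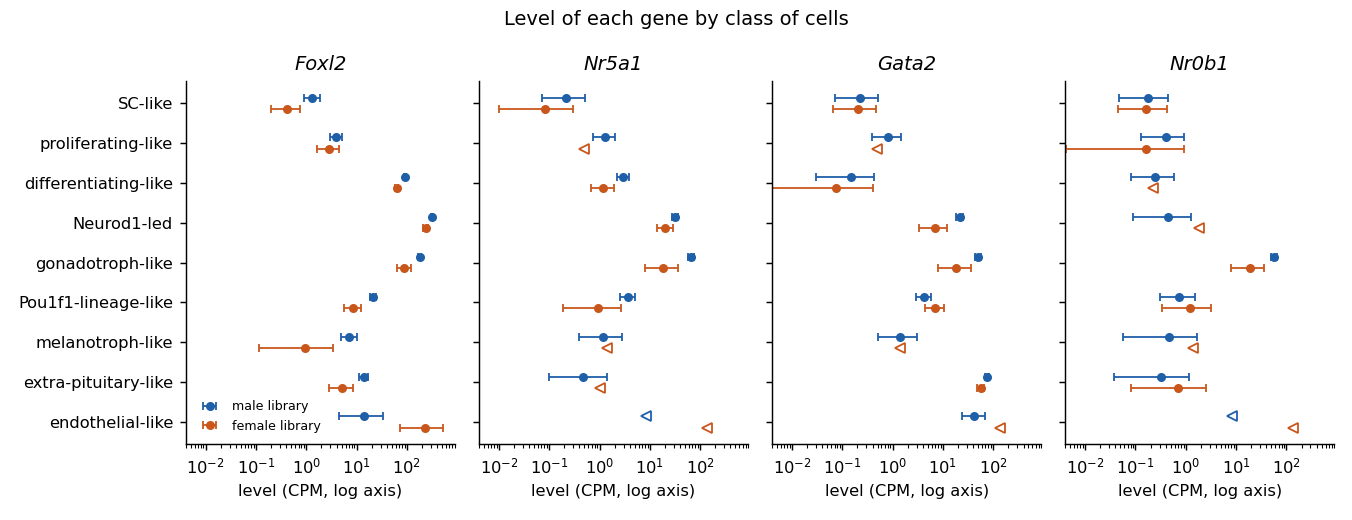
Level of each gene (CPM, log axis) by class of cells in the male and female library; points are the level over the summed UMIs of the class, bars exact Poisson 95% intervals, and open triangles the limit that a count of 0 allows. *Gata2* is highest in extra-pituitary-like cells in the male library (74.2 CPM) and *Nr0b1* in gonadotroph-like cells (56.4 CPM).

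Between the sexes, male cells over 1% *Cga* had 3.40 times (1.53–9.36) the *Nr0b1* of the female cells, on 204 against 6 UMIs, and this was the only member to pass the 2-fold rule, which 9.67% of genes passed toward the male and 3.92% toward the female library. The ratios of *Nr5a1* (1.36, 0.923–2.07), *Foxl2* (1.31, 1.11–1.56) and *Gata2* (0.871, 0.603–1.3) did not pass. Without the *Tshb*-rich cells the ratios were 1.06 for *Nr5a1*, 2.65 (1.2–7.31) for *Nr0b1*, 1.11 for *Foxl2* and 1.65 (0.949–3.14) for *Gata2*, where 9.61% of genes passed toward the male and 2.38% toward the female library. At 1 to 2% *Cga* the *Nr0b1* ratio was 1.87 (0.498–15.7) and the *Gata2* ratio 4.55 (1.24–37.9), the latter past the rule with 11.5% of genes toward the male and 2.78% toward the female library. In the gonadotroph-like cells of at least 0.3% *Cga* no member passed, with ratios of 2.11 (1.06–4.95) for *Nr5a1*, 1.77 for *Nr0b1*, 1.3 for *Foxl2* and 1.62 for *Gata2*, while 12.6% of genes passed toward the male and 3.74% toward the female library. Over the whole cluster, with its cells under 0.3% *Cga*, all 4 passed (3.58, 3.05, 2.05 and 2.74), where 11.7% of genes passed toward the male and 5.35% toward the female library.

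In the other classes the male library had more *Gata2* in *Neurod1*-led cells (3.18 times, 1.73–6.52), where 7.1% of genes passed toward the male and 3.32% toward the female library. It had more *Nr5a1* in differentiating-like cells (2.52 times, 1.44–4.69), where these shares were 3.97% and 3.35%, and *Nr0b1* passed there on 5 UMIs against 0. In *Pou1f1*-lineage-like cells it had more *Nr5a1* (3.92 times, 1.23–20) and *Foxl2* (2.55 times, 1.70–3.97), with shares of 5.09% and 4.01%. *Gata2* there had a ratio of 0.587 (0.342–1.03). The libraries also differ in animals, preparation and depth, so that sex cannot be told apart from library in any of these ratios.

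Finally, genes were ranked by how alike their levels were to each member over the 22 clusters, as Pearson's r of log2(CPM + 5) with both libraries summed. These correlations describe 22 clusters of the same 2 libraries. The genes most like *Nr5a1* were *Nxnl2* (0.969), *Nhlh2* (0.963), *Gnrhr* (0.934), *Retn* (0.920) and *Nmu* (0.911). Those most like *Nr0b1* were *Tgfbr3l* (0.966), *Fshb* (0.963), *Lhb* (0.922), *Nmu* (0.874) and *Gnrhr* (0.863). *Fshb* was found in 6 of the 203 male and 1 of the 14 female gonadotroph-like cells of at least 0.3% *Cga*. *Foxl2* was closest to *Fam8a1* (0.959), *Atp8a2* (0.957), *Rprd1a* (0.937), *Neurod1* (0.923) and *Bik* (0.913), and *Gata2* to *Tgfbr3* (0.895), *Piezo2* (0.861), *Vps4a* (0.859), *Svep1* (0.850) and *Cd164* (0.841). Among the members themselves *Nr5a1* was closest to *Foxl2* (0.814) and to *Nr0b1* (0.768), and *Gata2* had 0.366 with both *Nr5a1* and *Nr0b1* and 0.436 with *Foxl2*.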

How the data were processed

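Per the labels and the header of the matrices, the authors counted reads with Cell Ranger 3.0.2 on mm10 with eGFP added, and deposited UMI counts per gene and barcode without normalization. The sources give the kit version in more than 1 form. Cells with at least 50 genes and a mitochondrial share up to 3 SD above the library mean were kept, which removed 159 of 10569 male and 85 of 5796 female barcodes. The kept cells held 105883748 male and 62830305 female UMIs. Doublets were scored in scanpy 1.11.5 (867 male and 261 female cells marked) and kept.

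Clusters came from Seurat 5.3.0 in R 4.3.3, with RANN 2.6.2 for the neighbours: both libraries were integrated over 2000 variable genes and 20 components at resolution 0.8, leaving out 50 genes (the members, the listed genes, *Xist*, Y-linked genes and eGFP). A cluster was named when its mean marker score reached 0.4 with 3 markers at 5 CPM or more. Clusters with a median under 33.3% of the library median UMI number were not named unless a marker of their class was among their 10 leading genes. A cluster was also left unnamed when its leading genes held more markers of another class, or when over 75% of its cells were doublet-marked.

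CPM values are the summed UMIs of a gene in a set of cells over all UMIs of that set, on the usual CPM scale. Intervals are exact, Poisson for CPM and Clopper-Pearson for shares (SciPy 1.17.1). The limit beside a 0 corresponds to 3 counts. Cells were thinned to 5000 UMIs (seed 1). A gene was tested in a comparison with at least 5 UMIs in the set with the higher level, and passed at a 2-fold ratio after adding 0.5 to both UMI sums. No p-value was computed. Named genes were the 4 members, the genes of the 4 lists, cluster markers and, for each member, the 5 most alike genes among those with at least 50 CPM in a cluster, or at least the member's own highest level where that is lower. The members and lists were chosen with earlier results of these data known. Values of some listed genes are not reported here. The scripts were tested on simulated data.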

Additional observations from a re-analysis of the deposited data

How the results depend on the processing

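Of 291 values recomputed under an alternative, 246 stayed within the counting interval of the value reported, 45 moved outside it and none reversed. Resolution 1.2, another thinning seed, every filtered cell, at least 2000 UMIs, and scaling without 6 hormone genes moved none of these values. The bin in which a gene came on was not counted among them. With at least 2000 UMIs per cell, male *Nr0b1* came on in a later bin than in the main analysis. No paired analysis was possible because there was 1 library per sex and no result comes from a test. Over 1% *Cga*, leaving out cells with a *Pou1f1* UMI gave female levels of 56.0 CPM for *Nr5a1*, 261 for *Foxl2* and 16.6 for *Gata2*. Leaving out *Tshb*-rich cells, an alternative added after the data were seen, gave 237 CPM for female *Foxl2*, 23.3 for female *Gata2* and a male over female *Gata2* ratio of 1.65. Without doublet-marked cells male *Foxl2* was 276 CPM.

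The median *Cga* share of the bin at 50% of the highest level moved in bins of equal cell number to 0.592% for female *Nr5a1*, *Nr0b1* and *Gata2*, 1.72% for male *Nr0b1*, 0.475% for male *Foxl2* and 0.0880% for female *Foxl2*, and to 0.0488% for male *Foxl2* without *Pou1f1* cells. Equal bins therefore do not separate *Nr5a1*, *Nr0b1* and *Gata2* in either library, since male *Nr5a1* and *Gata2* were also at 1.72%. Thinned to 3000 UMIs, 16.6% of male cells over 1% *Cga* had 2 or more members.

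At resolution 0.4 the *Neurod1*-led cells joined the gonadotroph-like class, whose male levels became 44.0 CPM for *Nr5a1*, 20.5 for *Nr0b1*, 264 for *Foxl2* and 32.2 for *Gata2*, with female *Nr0b1* at 3.92 and *Foxl2* at 204, and male differentiating-like *Gata2* was 0.903. Classes from marker UMIs per cell gave gonadotroph values of 53.3, 29.7, 266 and 39.7 CPM in the male library, with female *Nr5a1* at 55.9 and *Foxl2* at 261. They gave differentiating *Foxl2* of 105 (male) and 71.2 (female) and male *Gata2* of 2.29, and *Pou1f1*-lineage *Foxl2* of 26.6 and 18.1 and male *Nr0b1* of 1.62. With at least 2000 genes per cell, male gonadotroph-like *Nr5a1* was 55.7 and *Nr0b1* 46.0, and without doublet-marked cells *Nr0b1* was 66.3. Without cells under 0.3% *Cga*, also added after the data were seen, gonadotroph-like *Foxl2* was 201 (male) and 154 CPM (female). The causes of these moves were not tested beyond the sets of cells each alternative changes.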

Other observations

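In 172 male melanotroph-like cells, marked by *Pomc* and *Pax7*, the levels were 7.08 CPM of *Foxl2*, 1.42 of *Gata2*, 1.18 of *Nr5a1* and 0.472 of *Nr0b1*.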
